A study of Mus musculus with 17 samples.

Results

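Acetylation of lysine 9 of histone H3 (H3K9ac) was compared between mature CD8 thymocytes that lack the factors Tcf1 and Lef1 (DKO CD8) and those of wild-type mice (WT CD8) by chromatin immunoprecipitation and sequencing (ChIP-seq). The comparison used every enriched interval, or island, of the 2 H3K9ac libraries: 6516 in DKO CD8 and 9860 in WT CD8. These are 16376 of the 346699 islands in the 12 histone libraries, and 2 of the 17 samples of the series. Islands with 1 bp or more in common were joined across the 2 libraries, which gave 13500 regions in the mm9 build of the mouse genome.

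Each group of thymocytes had 1 library per histone mark and an input, and a Tcf1 ChIP-seq was made from splenic CD8 T cells. The DKO CD8 cells came from mice of genotype Tcf1-/-Lef1-/-, in which CD4-Cre had deleted both factors, and the WT CD8 cells from wild-type control mice. Both were sorted from the thymus as TCRbeta high, CD69–, CD24– and CD8+ cells, so the deletion is the only labelled difference between them. Part of the samples was sequenced again, and the labels do not say which. Wild-type CD4 thymocytes (WT CD4) carry CD4 in their titles and sources and the CD8+ phenotype in another label, and they are called WT CD4 here. The Tcf1 peaks are those of TCRbeta high, CD8+ splenic T cells of wild-type mice, with a library from Tcf1-/- mice as the labelled control. CD4-Cre becomes active at the double-positive thymocyte stage, before CD8 cells mature, so cells had lacked the factors through the last steps of their development. The labels do not say how many animals gave each library.

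Acetyl groups on lysine 9 are added by enzymes such as GCN5 and PCAF and removed by histone deacetylases, and the mark is found at active promoters and enhancers. There it usually lies together with H3K27ac and, at promoters, with H3K4me3, whereas H3K27me3 is the mark of Polycomb silencing and occupies the same lysine as H3K27ac. Tcf1 and Lef1 are DNA-binding proteins of the HMG-box family that set up T cell identity and hold back CD4 genes in CD8 cells. Both have been described as having deacetylase activity of their own, so the question is how H3K9ac differs between CD8 cells with and without them, at their binding sites and elsewhere. Genes at the regions, the deletion itself and cell-type markers were not analysed here, because no gene annotation of the files' build was used here.

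The H3K9ac islands held 281383 reads over 11.5 Mb in DKO CD8 and 248234 reads over 13.5 Mb in WT CD8, the 2 lowest totals among the 12 histone libraries. DKO CD8 islands had a median width of 1600 bp and a median of 33 reads, and WT CD8 islands a median width of 1200 bp and a median of 20 reads. The weakest island had 13 reads in DKO CD8 and 10 reads in WT CD8. A single place on chr11:3021801-3100200, strong in most libraries, took 5.63% of the DKO CD8 island reads and 4.53% of those of WT CD8. With 1 library a side no difference has a replicate check and no p-value is given. Intervals are 95% and cover counting error only.

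A minority of the H3K9ac regions were common to both groups. An island lay in DKO CD8 alone at 3702 regions (27.4%, exact binomial interval 26.7 to 28.2), in WT CD8 alone at 6988 (51.8%, 50.9 to 52.6) and in both libraries at 2810 (20.8%, 20.1 to 21.5). Shared regions had a median width of 1800 bp and medians of 43 reads in DKO CD8 and 25 reads in WT CD8. The regions of DKO CD8 alone were lighter, with a median of 29 reads and quartiles of 25 and 36, and those of WT CD8 alone had a median of 18 reads with quartiles of 16 and 22. Reads outside islands are not known, so a region without an island in one library is described as not called there and gets no fold.

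Whether an island had a partner in the other library went with its strength. The DKO CD8 islands were split into 4 equal groups by reads: from the fewest reads to the most, 23.3%, 26.2%, 46.6% and 76.7% of them also had a WT CD8 island. For WT CD8 islands split in the same way, the share with a DKO CD8 island was 15.1%, 17.7%, 28.1% and 55.6%. Among the 500 islands with the most reads it reached 86.4% in DKO CD8 and 66.4% in WT CD8. Of the regions of 1 library, 36 of DKO CD8 and 108 of WT CD8 had at least 50 reads after the DKO CD8 reads had been divided by the median ratio of shared regions.

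**Figure D1:**
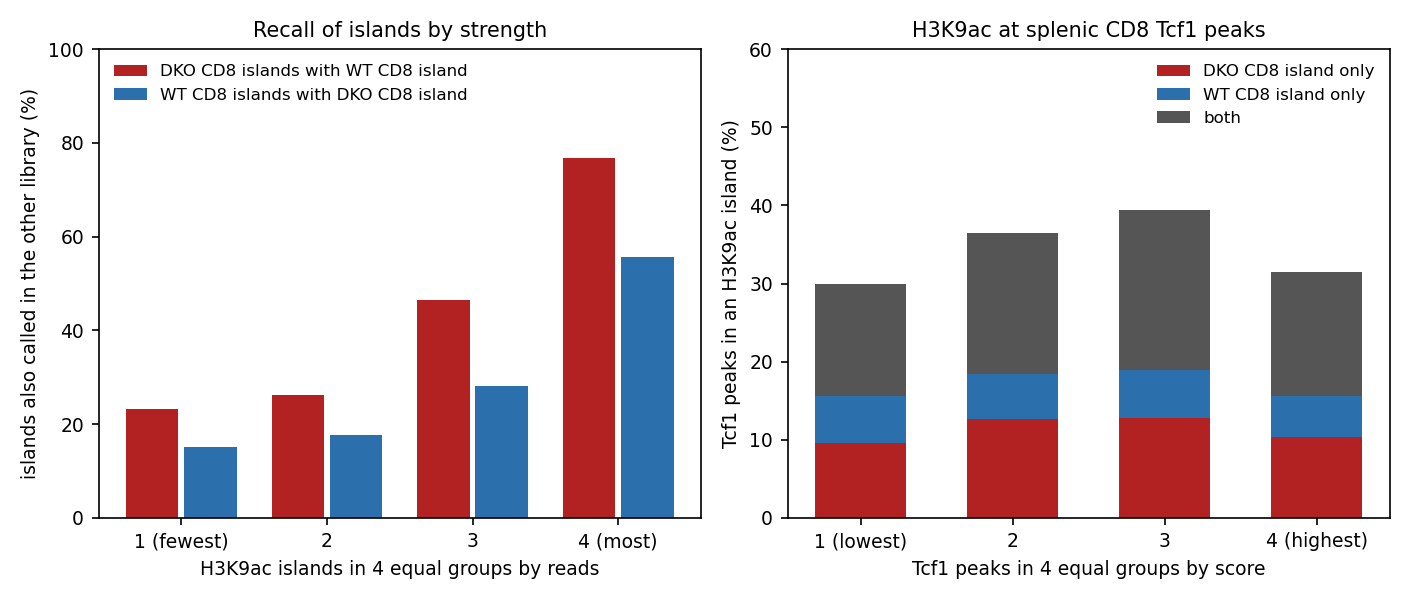
Left, the percentage of H3K9ac islands of each library that share at least 1 bp with an island of the other, in 4 equal groups by reads per island (red, DKO CD8; blue, WT CD8). Right, the percentage of splenic CD8 Tcf1 peaks lying in an H3K9ac island of DKO CD8 only, of WT CD8 only or of both, in 4 equal groups by the authors' peak score. In the group with the most reads 76.7% of DKO CD8 islands have a partner, against 55.6% of WT CD8 islands, and Tcf1 peaks in DKO CD8 islands only outnumber those in WT CD8 islands only in each score group.

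Regions called in 1 library were mostly not the edges of islands of the other. The nearest WT CD8 island lay at a median distance of 58.8 kb from regions of DKO CD8 alone, and 2.76% of them lay within 2 kb of one. For regions of WT CD8 alone the nearest DKO CD8 island was at a median of 83.6 kb, and 1.72% lay within 2 kb. Beyond 20 kb from any island of the other library lay 75.8% of the DKO CD8 regions and 83.6% of the WT CD8 regions.

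The 3 classes differed in the other marks they carried, which the H3K9ac lists had no part in. At the 2810 shared regions H3K27ac islands were present at 98.0% in DKO CD8 and 94.2% in WT CD8, and H3K4me3 islands at 92.1% in DKO CD8 and 90.0% in WT CD8. Both active marks in both CD8 groups were found at 82.3% of shared regions (80.9 to 83.7), at 27.4% of regions of DKO CD8 alone (26.0 to 28.9) and at 8.39% of regions of WT CD8 alone (7.75 to 9.06). Neither active mark in either CD8 group was found at 28.4% of regions of DKO CD8 alone and at 51.6% of those of WT CD8 alone, but at 16 of the shared regions (0.569%). The shared set thus lay almost wholly at places with other active marks, unlike the WT CD8 set.

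The H3K27ac islands at the regions of 1 library were often called in both groups, so that H3K9ac and H3K27ac calls went apart. Of the 3702 regions of DKO CD8 alone, 1562 (42.2%) had H3K27ac islands in both CD8 groups, 499 (13.5%) in DKO CD8 only and 390 (10.5%) in WT CD8 only. Of the 6988 regions of WT CD8 alone, 1107 (15.8%) had H3K27ac islands in both, 721 (10.3%) in DKO CD8 only and 1151 (16.5%) in WT CD8 only. For H3K4me3 the matching counts in DKO CD8 alone were 1326 in both groups, 451 in DKO CD8 only and 305 in WT CD8 only. In WT CD8 alone there were 887 in both groups, 263 in DKO CD8 only and 1038 in WT CD8 only. For each active mark, the single-group calls leaned to the group that had the H3K9ac island. The WT CD8 lists were the longer, with 56985 H3K27ac islands against 29636 in DKO CD8, and 42013 H3K4me3 islands against 23411. Over all 13500 regions H3K27ac lay at 49.2% in DKO CD8 and 50.8% in WT CD8, and H3K4me3 at 40.8% in DKO CD8 and 45.1% in WT CD8. With H3K27ac lists of equal covered length, only the calls of the region's own group were counted, as given below. The part of list length in the lean was otherwise not tested.

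The WT CD4 library, a further wild-type sample that neither list was made from, held an H3K9ac island at 96.5% of the shared regions, at 51.1% of the regions of DKO CD8 alone (49.5 to 52.7) and at 25.4% of those of WT CD8 alone (24.3 to 26.4). On the full WT CD4 list, regions called in DKO CD8 but not in WT CD8 were thus called about as often as not. Where H3K27ac was also present in both CD8 groups, the WT CD4 share was 90.3% for regions of DKO CD8 alone and 80.5% for those of WT CD8 alone. Where neither CD8 group had H3K27ac it was 8.55% for regions of DKO CD8 alone and 9.63% for those of WT CD8 alone. The WT CD4 list is longer than the others, with 32651 islands over 45.6 Mb. Trimmed to the covered length of DKO CD8, it touched 33.8% of regions of DKO CD8 alone, 12.3% of those of WT CD8 alone and 84.8% of shared regions.

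**Figure D2:**
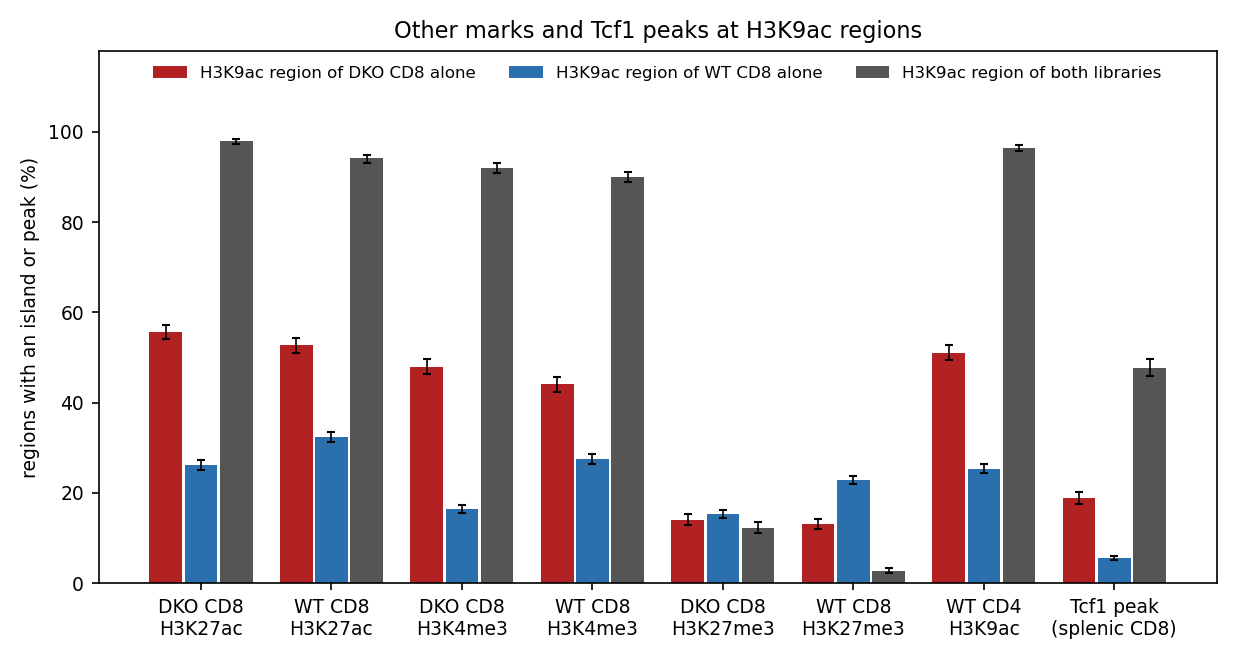
The percentage of H3K9ac regions that share at least 1 bp with an island of another library, or with a splenic CD8 Tcf1 peak, for regions of DKO CD8 alone (red, 3702), WT CD8 alone (blue, 6988) and both libraries (grey, 2810); bars are exact 95% binomial intervals. Shared regions lead for H3K27ac, H3K4me3, WT CD4 H3K9ac and Tcf1, and regions of WT CD8 alone lead for H3K27me3, at 15.3% in DKO CD8 and 22.9% in WT CD8.

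Tcf1 peaks of splenic CD8 cells were placed on the H3K9ac regions next. A peak lay in 1341 shared regions (47.7%, 45.9 to 49.6), in 696 regions of DKO CD8 alone (18.8%, 17.6 to 20.1) and in 388 regions of WT CD8 alone (5.55%, 5.03 to 6.12). Nearly all of these regions also carried H3K27ac: among the 5289 regions without H3K27ac in either CD8 group, 15 (0.284%) had a Tcf1 peak. Among regions with H3K27ac in either CD8 group a peak lay in 28.2% of the 2451 of DKO CD8 alone (26.4 to 30.0) and in 12.8% of the 2979 of WT CD8 alone (11.6 to 14.0). Of the 1151 regions of WT CD8 alone with H3K27ac in WT CD8 only, 0.261% had a peak, against 18.0% of the 499 regions of DKO CD8 alone with H3K27ac in DKO CD8 only.

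Read from the peaks, 886 of the 7807 Tcf1 peaks (11.3%, 10.7 to 12.1) lay in an H3K9ac island of DKO CD8 only, 451 (5.78%, 5.27 to 6.32) in one of WT CD8 only, 1341 (17.2%) in both and 5129 (65.7%) in neither. In 4 equal groups by the authors' peak score, lowest first, the DKO CD8 only share was 9.64%, 12.7%, 12.8% and 10.3%, and the WT CD8 only share was 5.95%, 5.74%, 6.15% and 5.28%. The larger DKO CD8 share was thus found at weak and strong peaks alike and did not grow with the score. DKO CD8 islands are wider and denser in reads (24.4 reads per kb in DKO CD8 and 18.4 in WT CD8), and the part of this in the Tcf1 shares was not tested. With both lists cut to islands above their own median reads, Tcf1 peaks lay in 32.9% of regions of DKO CD8 alone, 11.3% of those of WT CD8 alone and 54.3% of shared regions.

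H3K27me3 divided the classes in another way. At shared regions an H3K27me3 island was present in DKO CD8 at 344 (12.2%, 11.1 to 13.5) and in WT CD8 at 77 (2.74%, 2.17 to 3.41). In DKO CD8 only it was found at 297 shared regions, in WT CD8 only at 30 and in both at 47. The DKO CD8 library has fewer H3K27me3 islands than WT CD8 in all, 23933 against 34756. The 349 DKO CD8 islands of H3K27me3 that touched shared regions had a median of 39 reads over 1600 bp, while all of that library's H3K27me3 islands had a median of 52 reads over 2600 bp. They thus were short islands, of 26.4 reads per kb at the median against 23.2 in all. Of the shared regions 306 (10.9%) had H3K27ac, H3K4me3 and H3K27me3 islands all in DKO CD8, and 59 (2.10%) had all of these in WT CD8. H3K27ac and H3K27me3 are marks of one lysine, and an overlap of their islands does not say that both were on the same molecule or in the same cells.

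Regions called only in WT CD8 showed the other order, with H3K27me3 at 15.3% in DKO CD8 (14.4 to 16.1) and at 22.9% in WT CD8 (21.9 to 23.9). H3K27ac and H3K27me3 islands of WT CD8 lay together at 13.2% of these regions, against 8.29% of the regions of DKO CD8 alone and 2.42% of the shared regions. In the DKO CD8 libraries both lay together at 3.84% of regions of WT CD8 alone, 6.24% of DKO CD8 alone and 11.5% of shared regions.

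Regions of 1 library whose own group alone had an H3K27ac island give the calls with a second mark behind them; these sets were chosen after values had been seen. Places of high signal in many libraries were left out of them: those with islands in at least 10 of the 12 histone libraries, an H3K27me3 island among them, or with over 100 reads per kb. There were 497 such regions in DKO CD8 (13.4% of the class, median 28 reads) and 1150 in WT CD8 (16.5%, median 20 reads). The DKO CD8 set held WT CD4 islands of H3K9ac at 65.6% and of H3K27ac at 78.5%, a Tcf1 peak at 90 regions (18.1%) and a DKO CD8 H3K27me3 island at 16.5%. The WT CD8 set held WT CD4 islands of H3K9ac at 14.8% and of H3K27ac at 5.39%, a Tcf1 peak at 3 regions (0.261%) and a WT CD8 H3K27me3 island at 823 (71.6%). So most of these 497 regions also had WT CD4 islands, and most of the 1150 also had WT CD8 H3K27me3 islands. Over the whole classes the shares were lower, at 51.1% for WT CD4 H3K9ac in DKO CD8 alone and 22.9% for WT CD8 H3K27me3 in WT CD8 alone. A background common to the WT CD8 libraries was not tested, since inputs were not analysed here.

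Without H3K27me3 in any group 392 regions of the DKO CD8 set were left (78.9%), 82 of them with a Tcf1 peak and 259 with WT CD4 islands of both H3K9ac and H3K27ac. Of the WT CD8 set 247 were left (21.5%), 0 of them with a Tcf1 peak and 10 with WT CD4 islands of both marks. With the H3K27ac lists of DKO CD8 and WT CD8 trimmed to equal covered length the DKO CD8 set numbered 706, with Tcf1 peaks at 21.5% and DKO CD8 H3K27me3 at 14.9%. The WT CD8 set then numbered 895, with Tcf1 peaks at 0.223% and WT CD8 H3K27me3 at 78.4%.

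The single regions with the most reads show what lies behind these shares. For the other marks, values at a region are sums over whole islands that touch it, and these can reach beyond it. These reads are not scaled: at shared H3K9ac regions the median ratio of DKO CD8 over WT CD8 was 3.49-fold for H3K27ac, 1.14-fold for H3K4me3 and 1.57-fold for H3K27me3. In DKO CD8 alone the strongest region outside places of high signal was chrX:92130401-92163400, 33.0 kb wide, with 928 H3K9ac reads in DKO CD8 and no island in WT CD8. It had H3K27ac reads of 1102 in DKO CD8 and 1180 in WT CD8, a centred log2 ratio of -1.90, and H3K27me3 islands in all 3 groups. A neighbour at chrX:92122201-92129400 had 228 H3K9ac reads in DKO CD8. Neither had a WT CD4 H3K9ac island.

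Second in DKO CD8 was chr6:124829601-124839000, with 667 H3K9ac reads over 9.4 kb in DKO CD8 and 1180 in WT CD4. There H3K27ac held 1688 reads in DKO CD8, 357 in WT CD8 and 3160 in WT CD4. H3K27me3 held 2366 reads in DKO CD8, 1031 in WT CD8 and 513 in WT CD4, and H3K4me3 had an island in WT CD4 only, with 468 reads. Centred on the median of shared regions, the H3K27ac ratio of DKO CD8 over WT CD8 was 0.44 (log2).

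On chromosome 14 a pair of neighbouring regions was called in DKO CD8 alone. At chr14:54786401-54797200 DKO CD8 had 197 H3K9ac reads and WT CD4 had 135, and H3K27ac had 648 reads in DKO CD8, 91 in WT CD8 and 330 in WT CD4, a centred ratio of 1.03 between the CD8 groups. At chr14:54777601-54784200 DKO CD8 had 107 H3K9ac reads and WT CD4 had 18, and H3K27ac had 648 reads in DKO CD8, no island in WT CD8 and 138 reads in WT CD4. Neither region had an H3K27me3 island in any group or a Tcf1 peak. The equal 648 reads come from one H3K27ac island of DKO CD8 that touches both.

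A Tcf1 peak lay at 2 of the 10 strongest regions of DKO CD8 alone, a share close to the 18.8% of the whole class. At chr8:74874401-74882800, with 2 Tcf1 peaks, DKO CD8 had 138 H3K9ac reads and WT CD4 had 103, and H3K27ac had 1785 reads in DKO CD8, 335 in WT CD8 and 1531 in WT CD4 (centred ratio 0.61). At chr6:125184201-125188400, with 1 peak, DKO CD8 had 124 H3K9ac reads and WT CD4 had 155, and H3K27ac had 814 reads in DKO CD8, 112 in WT CD8 and 647 in WT CD4 (centred ratio 1.06). In both, WT CD8 had an H3K27ac island but none of H3K9ac. Of the 10 strongest regions, 6 had a WT CD4 H3K9ac island, 9 had a WT CD8 H3K27ac island and 6 had H3K27me3 in some group. A DKO CD8 H3K27ac island lay at 8. Over the whole class 51.1% had a WT CD4 H3K9ac island, 52.7% a WT CD8 H3K27ac island and 55.7% a DKO CD8 H3K27ac island. Taken group by group, H3K27me3 lay at 14.1% of the class in DKO CD8, 13.0% in WT CD8 and 10.4% in WT CD4. The class share with H3K27me3 in any group was not counted.

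In WT CD8 alone the strongest region outside places of high signal was chr7:67002201-67047600, 45.4 kb wide, with no DKO CD8 island, 2420 H3K9ac reads in WT CD8 and 3026 in WT CD4. There H3K27ac had no island in DKO CD8 and 3054 reads in WT CD8, H3K4me3 had 3103 reads in DKO CD8 and 3097 in WT CD8, and H3K27me3 had no island in DKO CD8 and 4348 reads in WT CD8. So 1 DKO CD8 library had an island as strong as that of WT CD8 at this place, and the other DKO CD8 libraries had none. The same was seen in WT CD4, with its H3K9ac island but none of H3K27ac, H3K4me3 or H3K27me3. The missing islands were thus not particular to DKO CD8. Islands lay there in 6 histone libraries, with 2420 to 4348 reads for active marks and H3K27me3 alike. The next 2 were chr10:57683401-57703800 with 1188 reads and chr8:56197201-56209200 with 979 reads in WT CD8. Both had H3K4me3 and H3K27me3 islands in DKO CD8, WT CD8 and WT CD4. Of the 10 strongest, 8 had H3K27me3 in some group, 9 had a WT CD4 H3K9ac island and 1 had a DKO CD8 H3K27ac island. A WT CD8 H3K27ac island lay at 6. Over the whole class 25.4% had a WT CD4 H3K9ac island, 26.2% a DKO CD8 H3K27ac island and 32.3% a WT CD8 H3K27ac island. Taken group by group, H3K27me3 lay at 15.3% of the class in DKO CD8, 22.9% in WT CD8 and 20.1% in WT CD4. The class share with H3K27me3 in any group was not counted.

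An exception without H3K27me3 was chr5:33076001-33085400, with no island in DKO CD8, 365 H3K9ac reads in WT CD8 and 266 in WT CD4. Its H3K4me3 had no island in DKO CD8, 195 reads in WT CD8 and 396 in WT CD4. Its H3K27ac had 779 reads in WT CD4 and no island in DKO CD8 or WT CD8. Places of high signal in many libraries also gave regions of WT CD8 alone, the strongest of them at chr17:39979801-39985800 with 2767 reads in WT CD8. That place held 17818 H3K27me3 reads in DKO CD8 and 8246 in WT CD8.

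**Figure D3:**
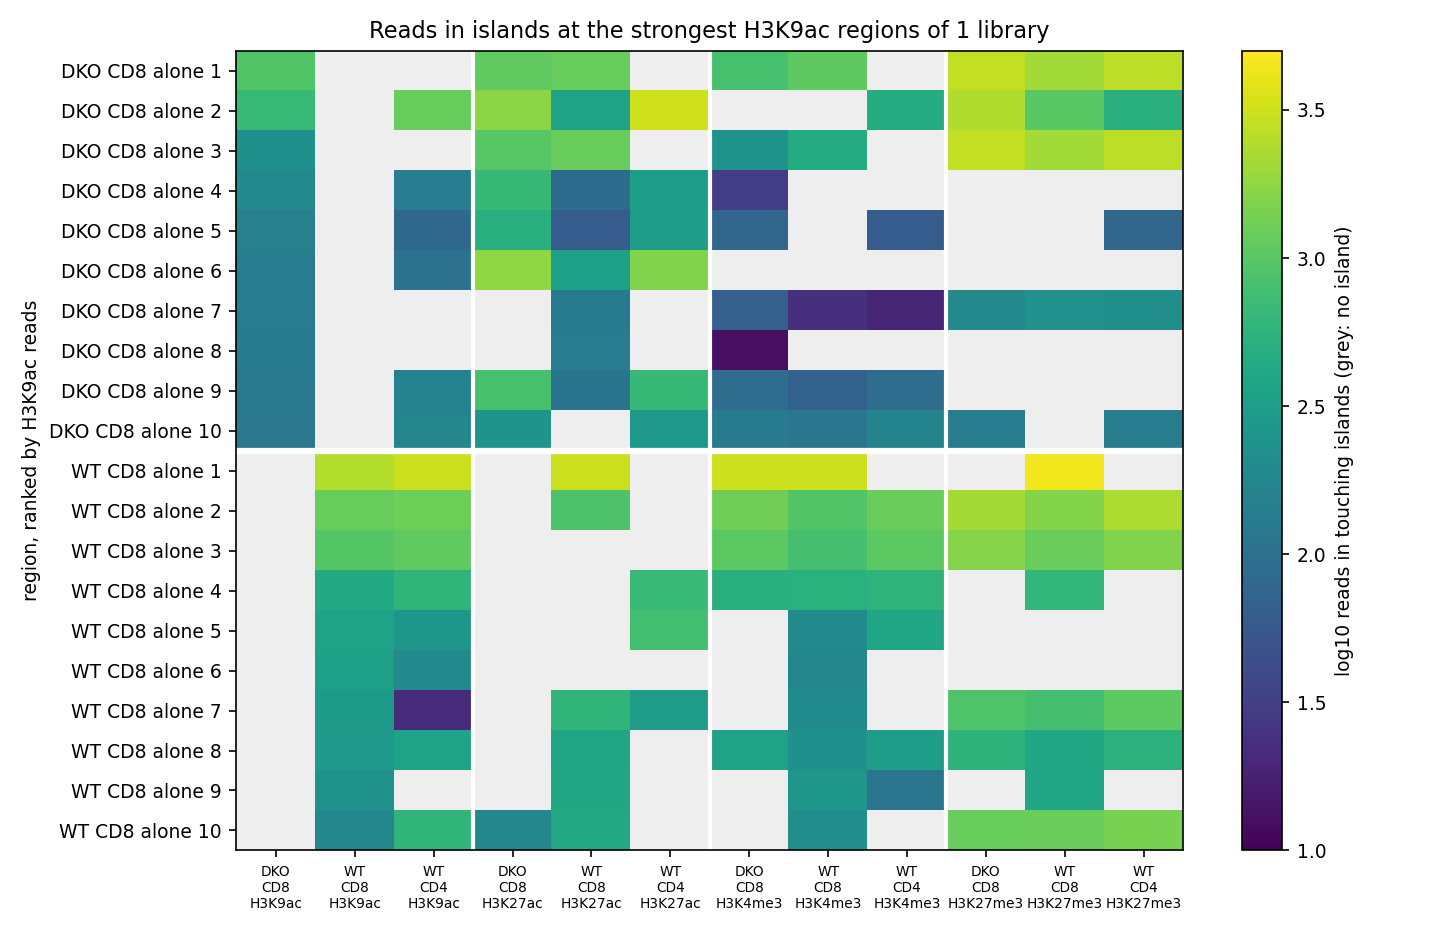
Reads in touching islands, as log10, for 12 histone libraries (columns, by mark) at the 10 H3K9ac regions with the most reads among those of DKO CD8 alone (upper rows) and those of WT CD8 alone (lower rows), places of high signal in many libraries left out; grey means no island. WT CD8 H3K27ac islands stand at 9 of the 10 DKO CD8 rows, and DKO CD8 H3K27ac islands at 1 of the 10 WT CD8 rows. Over the whole classes these shares are 52.7% and 26.2%. H3K27ac islands of the row's own group stand at 8 of the DKO CD8 rows and 6 of the WT CD8 rows. The WT CD8 H3K27ac list is the longer, with 56985 islands against 29636.

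Regions of 1 library with H3K27ac of the same group only and no H3K27me3 anywhere were modest in reads. The first 5 of DKO CD8 had 60 to 107 H3K9ac reads, or 35.1 to 62.6 when divided by the median ratio of shared regions, and each had a WT CD4 H3K9ac island. At chr17:51957401-51960200 DKO CD8 had 67 H3K9ac and 248 H3K27ac reads, and WT CD4 had 20 H3K9ac and 164 H3K27ac reads. At chr7:26060801-26064800, which holds a Tcf1 peak, DKO CD8 had 60 H3K9ac and 344 H3K27ac reads, and WT CD4 had 96 H3K9ac and 366 H3K27ac reads. The first 5 of WT CD8 had 35 to 54 reads in WT CD8, and 1 of them had a WT CD4 H3K9ac island. The strongest was chr5:3435801-3438600, with 54 H3K9ac and 22 H3K27ac reads in WT CD8. For scale, WT CD4 H3K9ac islands lay at 65.6% of the 497 DKO CD8 regions and at 14.8% of the 1150 WT CD8 regions. Those sets have H3K27ac of the same group only, with or without H3K27me3.

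At the 2810 shared regions the level could be compared as the ratio of island reads. The median ratio was 1.71-fold in favour of DKO CD8 (log2 of 0.77), and ratios are given from here on relative to this median, since total reads per library were not used here. On this scale the quartiles were -0.37 and 0.38 (log2), and the 5th and 95th percentiles -0.90 and 0.92. A ratio at least 2-fold higher in DKO CD8 was found at 111 regions (3.95%) and one at least 2-fold lower at 100 (3.56%), which leaves 2599 (92.5%) within 2-fold. Centring takes out any general difference between the libraries, so the balance of these counts cannot show one. Scaled to total island reads, 663 regions were higher and 14 lower. The ratios just inside and outside the limit differed by under 0.01, so it cuts through a continuous spread.

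Most of the 2-fold differences went with a difference in island length. DKO CD8 islands were the longer at 1752 shared regions (62.3%), which had a median ratio of 0.23 and held 110 of the 111 higher regions. WT CD8 islands were the longer at 705 (25.1%), with a median of -0.51 and 95 of the 100 lower regions. At the 353 regions with equal length the median was -0.15, and 1 region was higher and 3 were lower. At higher regions the DKO CD8 islands covered a median of 100% of the region and the WT CD8 islands 30%. At lower regions the DKO CD8 islands covered 50% and the WT CD8 islands 100%. Reads of a library outside its islands are not known, so a shorter island lowers the count as well. Per bp of each library's own islands 42 regions were higher and 79 lower.

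**Figure D4:**
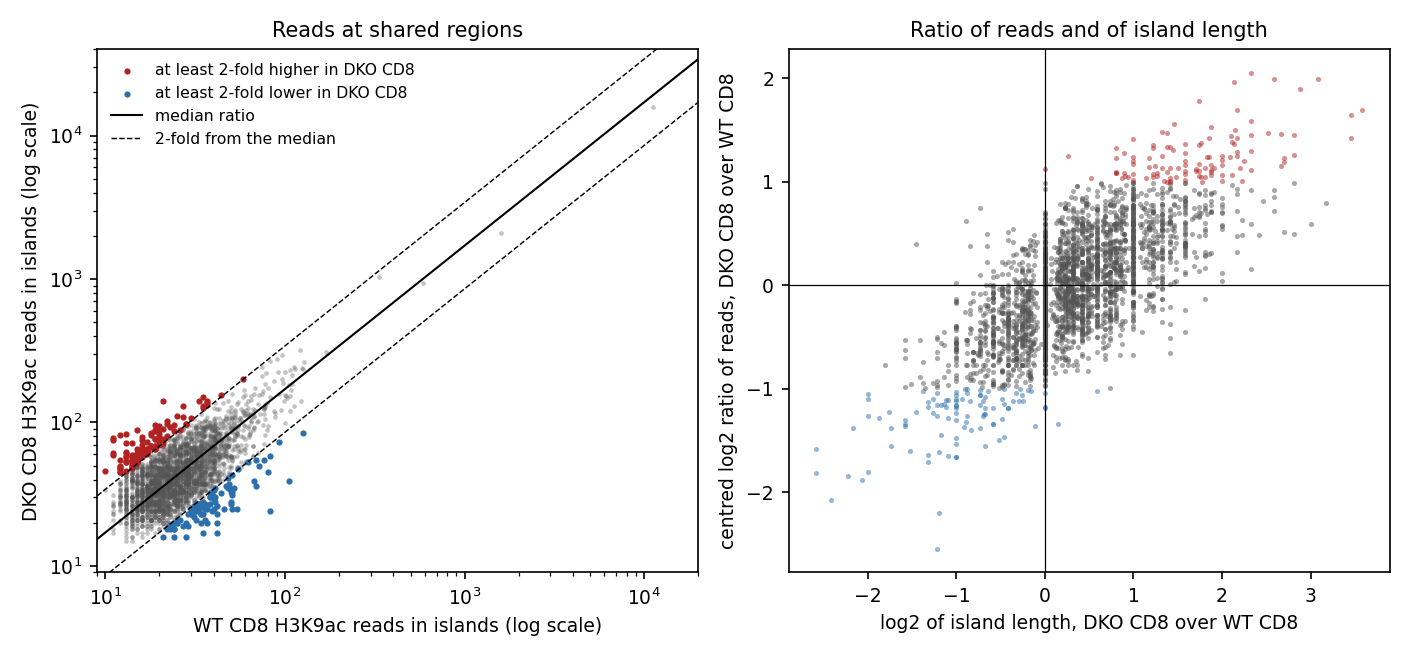
Left, H3K9ac reads in islands at the 2810 shared regions, WT CD8 on the x axis and DKO CD8 on the y axis (log scales), with the median ratio (line) and 2-fold either side of it (dashed). Right, the log2 ratio of reads, centred on its median, against the log2 ratio of island length, DKO CD8 over WT CD8; the 111 higher regions (red) lie almost all to the right of 0, where DKO CD8 islands are longer, and 95 of the 100 lower ones (blue) lie to the left.

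The highest ratios with at least 50 reads in the stronger library after scaling were at wide DKO CD8 islands. At chr6:48685801-48692800 DKO CD8 had 140 reads over 7.0 kb and WT CD8 had 21 reads over 1.6 kb, a log2 ratio of 1.96 (1.30 to 2.70). The H3K27ac ratio there was -0.18 and the H3K4me3 ratio 1.55, each centred in the same way. At chr3:96361001-96363000 DKO CD8 had 88 reads and WT CD8 15 (1.78, 0.98 to 2.68), with a Tcf1 peak and an H3K27ac ratio of 0.46. At chr9:107451801-107458000 DKO CD8 had 131 reads and WT CD8 27 (1.50, 0.90 to 2.16), with a Tcf1 peak and an H3K27ac ratio of 1.03. The islands there spanned 6.2 kb in DKO CD8 and 1.4 kb in WT CD8, and per bp of own islands the ratio turned to -0.31. Of the first 10, 7 had a Tcf1 peak, all had a WT CD4 H3K9ac island, and 6 had an H3K27ac ratio above 0. Among all shared regions 47.7% had a Tcf1 peak and 96.5% a WT CD4 H3K9ac island. By centring, the H3K27ac ratio was above 0 at 50% of the regions with one. In each of the first 10, WT CD8 islands covered under 50% of the region, and per bp of own islands none was 2-fold higher and 6 turned below 0.

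The lowest ratio was at chr4:134675601-134678400, with 24 reads in DKO CD8 and 82 in WT CD8 (-2.55, -3.27 to -1.88). H3K4me3 was lower there too, with 41 reads in DKO CD8 and 109 in WT CD8 (ratio -1.60), and H3K27ac had 223 reads in DKO CD8 and 82 in WT CD8, a centred ratio of -0.36. WT CD4 had no H3K9ac island at this place. At chr10:50142801-50147400 the ratios of 3 marks were below 0: H3K9ac had 45 reads in DKO CD8 and 80 in WT CD8 (-1.60, -2.16 to -1.06), H3K27ac 110 in DKO CD8 and 215 in WT CD8 (-2.77), and H3K4me3 51 in DKO CD8 and 101 in WT CD8 (-1.17). The H3K9ac islands spanned 1.6 kb in DKO CD8 and 4.6 kb in WT CD8, and per bp of own islands the H3K9ac ratio turned to 0.25. H3K27me3 had no island there in DKO CD8 and 188 reads in WT CD8. At chr3:103663001-103666400, which holds a Tcf1 peak, H3K9ac had 39 reads in DKO CD8 and 67 in WT CD8 (-1.55, -2.16 to -0.96), with ratios of -1.23 for H3K27ac and -1.19 for H3K4me3. Of the 10 lowest, 8 had an H3K27ac ratio below 0 and 5 had a Tcf1 peak, and per bp of own islands none was 2-fold lower and 3 turned above 0. Among all shared regions 47.7% had a Tcf1 peak, and the H3K27ac ratio was above 0 at 50% of those with one.

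Among the 5 shared regions with the most reads, the highest ratio was that of chr11:52077601-52098400, 20.8 kb wide with 5 Tcf1 peaks, the best of score 143.71. It had 1034 reads in DKO CD8 and 334 in WT CD8 (0.86, 0.68 to 1.04), and 1005 in WT CD4. It counts among the places with islands in at least 10 of the 12 histone libraries. A nearby region, chr11:52121601-52125200, was among the 10 highest, with 97 reads in DKO CD8 and 22 in WT CD8 (1.37, 0.69 to 2.11). H3K27ac there had 1046 reads in DKO CD8, 162 in WT CD8 and 1392 in WT CD4 (centred ratio 0.89).

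The other marks moved little with H3K9ac over the shared regions. At the 109 higher regions with an H3K27ac ratio its median was 0.09, with 4 regions at least 2-fold higher (3.67%) and 2 lower, beside 4.81% higher and 4.62% lower among all 2618 regions with such a ratio. The H3K4me3 ratio had a median of 0.28 at 91 higher regions, of which 12 (13.2%) were at least 2-fold higher and 3 lower, beside 4.82% in each direction among 2427 regions. At the lower regions the medians were -0.30 for H3K27ac over 90 regions and -0.25 for H3K4me3 over 78, with 9 (H3K27ac) and 11 (H3K4me3) at least 2-fold lower, and 8 and 4 at least 2-fold higher. Across regions the H3K9ac ratio and the H3K27ac ratio had a Pearson correlation of 0.13 (n = 2618), and with H3K4me3 it was 0.16 (n = 2427). Such weak values, from regions of the same libraries and of low counts, are given as a description.

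By Tcf1 binding the ratio differed little. The median was 0.05 at the 1341 shared regions with a Tcf1 peak and -0.05 at the 1469 without, both small beside the quartiles of -0.37 and 0.38. At the 156 regions with 2 or more peaks the median was 0.31, with 12 regions at least 2-fold higher and 2 lower. The regions with 2 or more peaks were also wider, with a median of 2400 bp against 1800 bp for all. In the widest of 4 equal groups of shared regions the median ratio was 0.11. In that group 8.82% were at least 2-fold higher and 5.83% lower. Of the 111 higher regions 59 had a Tcf1 peak (53.2%), as did 38 of the 100 lower ones (38.0%) and 47.7% of all shared regions.

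By the other marks, the ratio was 0.02 at the median where H3K27ac was called in both CD8 groups (2618 regions), -0.22 where it was called in DKO CD8 only (135) and -0.39 in WT CD8 only (28). By H3K4me3 the medians were 0.02 in both (2427), -0.08 in DKO CD8 only (160) and -0.26 in WT CD8 only (102). Regions with H3K27me3 in DKO CD8 only had a median of 0.16 (297), so the centred ratio was not lowered at these shared regions. Places without an H3K9ac island in DKO CD8 have no ratio and are not covered by this median. Whether H3K27me3 went with lower H3K9ac in the same cells was not tested. Where both CD8 groups had H3K27me3 the median was -0.28 (47). Each of these lies between the quartiles of all shared regions, apart from the 28 with H3K27ac in WT CD8 only.

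Along the genome, chromosome X stood apart from the autosomes in its classes. Of its 299 regions, 171 were called in DKO CD8 alone (57.2%, 51.4 to 62.9), 101 in WT CD8 alone (33.8%) and 27 in both (9.03%). On the autosomes 26.7% of regions were called in DKO CD8 alone, 52.2% in WT CD8 alone and 21.1% in both, and the share of DKO CD8 alone ran from 22.1% on chromosome 8 to 33.3% on chromosome 18. Chromosome X held 198 DKO CD8 islands (3.04%) and 128 WT CD8 islands (1.30%) of H3K9ac, and 640 of WT CD4 (1.96%).

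The X-linked regions of DKO CD8 alone differed from the autosomal ones in the marks beside them. DKO CD8 H3K27ac lay at 39.8% of them, against 56.5% on autosomes, Tcf1 peaks at 3.51% against 19.6%, and WT CD4 H3K9ac at 36.3% against 51.9%. DKO CD8 H3K4me3 lay at 48.5% on chromosome X and 48.0% on autosomes. H3K27me3 was more frequent on chromosome X, at 23.4% against 13.6% on autosomes in DKO CD8 and at 20.5% against 12.6% in WT CD8. The excess on chromosome X was not common to the DKO CD8 libraries: of H3K27ac islands 1.99% in DKO CD8 and 6.30% in WT CD8 lay there. Of H3K27me3 islands it was 3.54% in DKO CD8 and 6.36% in WT CD8, and of H3K4me3 islands 5.54% in DKO CD8 and 4.44% in WT CD8. The sex of the mice is not in the labels used here, and its part was not tested. On chromosome Y there were 2 H3K9ac islands in DKO CD8 and 3 in WT CD8. The other marks had more islands there in WT CD8. H3K27ac had 0 in DKO CD8 and 49 in WT CD8, H3K4me3 had 4 and 22, and H3K27me3 had 1 and 30. Each of these WT CD8 lists was also the longer.

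**Figure D5:**
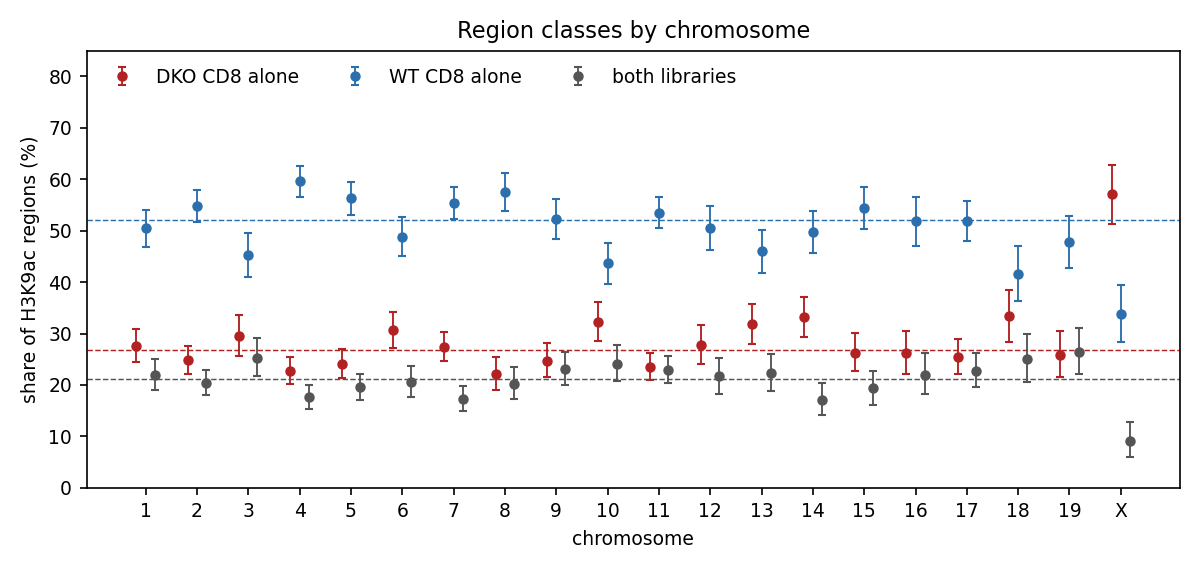
The share of H3K9ac regions on each chromosome called in DKO CD8 alone (red), WT CD8 alone (blue) or both libraries (grey), in percent, with exact 95% binomial intervals; dashed lines give the shares over all autosomes. Chromosome X, at 57.2% for DKO CD8 alone, lies above each autosome, whose highest share is 33.3%.

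On a scale of 1 Mb the classes were mixed. Of the 2244 bins with a region, 587 held more regions of DKO CD8 alone, 1296 more of WT CD8 alone and 361 equal numbers. The bin with the most regions of DKO CD8 alone was chr13:23000001-24000000, with 14 of them, 0 of WT CD8 alone and 6 shared. The most of WT CD8 alone lay in chr11:119000001-120000000, with 6 of DKO CD8 alone, 24 of WT CD8 alone and 3 shared.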

How the data were processed

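The deposited island lists give, per library, intervals on a 200 bp grid and a whole read count per island, not normalized. Inputs and total reads were not analysed here. FastQC, Bowtie2 2.2.5, SICER 1.1, MACS 1.4.2 and mm9 are named, per the submitters' processing notes, with no role for each. Per the labels, an unnamed part of the samples was sequenced again. The authors deposited a score per Tcf1 peak, used to rank peaks. Counts of DKO CD8 and WT CD8 were compared as log2 ratios centred on the median of shared regions. Intervals are exact Clopper-Pearson at 95%, for ratios conditional on the summed count. Members, lists and classes were chosen with earlier results of these data known. Named regions are the 10 highest and 10 lowest ratios (at least 50 scaled reads), the 10 with the most reads of 1 library, and the 5 shared ones with the most reads; text gives some of each. Ratio steps were tested on simulated data, and overlaps were checked with bedtools 2.31.1. Tools were SciPy 1.17.1, pandas 2.3.3, numpy 2.4.6 and matplotlib 3.10.9 under Python 3.11.15.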

Additional observations from a re-analysis of the deposited data

How the results depend on the processing

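No paired analysis was possible because each group had 1 library and no replicate number. The counts of the 3 region classes moved by under 1.5 times with an overlap of 50%, with islands within 600 bp merged, at equal covered length and without places of high signal in many libraries. The 2-fold counts did so with an overlap of 50% and without those places, the other 2 settings not being run for them. With islands above their list's median reads, 1630 regions were in DKO CD8 alone, 2730 in WT CD8 alone and 1516 shared. Shared regions whose island in 1 library was cut count here as called in the other library alone. Tcf1 peaks then lay in 32.9% of DKO CD8 alone, 11.3% of WT CD8 alone and 54.3% of shared regions. In the same 3 classes DKO CD8 H3K27ac lay in 75.6%, 40.9% and 98.6%, WT CD8 H3K27ac in 74.7%, 49.9% and 98.0%, and chromosome X had 49.5% in DKO CD8 alone. Tcf1 peaks at or above the median score lay in 10.4% of DKO CD8 alone, 2.86% of WT CD8 alone and 26.5% of shared regions, and trimmed WT CD4 H3K9ac islands in 33.8%, 12.3% and 84.8% of these classes. Without H3K27me3 in any group 247 regions of WT CD8 alone kept H3K27ac support. The alternatives for chromosome X, for the other marks and for H3K27ac support were chosen after seeing the data.

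The 2-fold counts rested on the scale and on island length. They were 663 higher and 14 lower on total island reads, which shifts each ratio by 0.59, 29 and 22 with at least 50 scaled reads (333 regions), 18 and 57 where each library's islands covered 50% of the region (2281), 10 and 14 at 3-fold, and 42 higher per bp of own islands. Median ratios on total reads, with 50 reads and with 50% covered were 0.65, 0.28 and -0.021 with a Tcf1 peak, 0.54, 0.17 and -0.12 without one, 0.61, 0.26 and -0.054 with H3K4me3 in both groups, 0.54, 0.18 and -0.29 in neither, and 0.75, 0.35 and 0.078 with H3K27me3 in DKO CD8 only. Per bp of own islands 0 of the 20 named ratios stayed beyond 2-fold, and 9 turned. They became -0.31 at chr9:107451801, -0.72 at chr4:63062601, -0.54 at chr7:97277801, -0.33 at chr5:122680201, -0.10 at chr10:61968601, -0.059 at chr18:84255201, 0.52 at chr2:25353201, 0.53 at chr8:113615801 and 0.25 at chr10:50142801. This alternative takes out the difference in island length by its construction. On total reads 18 of the 20 kept their direction and stayed beyond 2-fold, each shifted by 0.59. Genes with promoter islands were not run. With 281383 reads in islands in DKO CD8 and 248234 in WT CD8, a region without an island cannot be read as one without the mark.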
